A study of Mus musculus with 6 samples.

Results

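Cycling cells of the lung were chosen by the mRNA of 6 cell division genes, whatever their lineage. A cell was called cycling when at least 3 of Mki67, Top2a, Birc5, Pclaf, Cenpf and Ccna2 had a unique molecular identifier (UMI, a tag that counts 1 captured mRNA molecule). This rule found 579 cycling cells among 25704 cells. Each cell was then given the lineage whose marker genes had the largest summed UMI count. The markers were Cd3e and Cd3d for T cells, Cd79a for B cells, Ncr1 and Klrb1c for natural killer (NK) cells, Plet1 and Atp6v0d2 for alveolar macrophages (AMs), Cdh5 for endothelial cells and Col1a2 for fibroblasts. A cell with no UMI of these genes, or with a tie, was left without a lineage. Of the 579 cycling cells, 245 were AM-lineage, 214 T-lineage, 46 B-lineage, 22 NK-lineage, 3 endothelial and 1 fibroblast, and 48 had no lineage, 8 of them through a tie.

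The cells came from 6 male hCTLA4 mice aged 12 weeks on the C57BL/6 background, in which part of the mouse Ctla4 gene is replaced by the human sequence so that the human antibody ipilimumab can bind the protein. All 6 mice received bleomycin, a drug that injures the lung and leads to fibrosis, by the oropharyngeal route (1.25 U per kg, 2 doses, 2 weeks apart). From day 21 of the schedule in the study's methods, which in its results is counted after the second bleomycin dose, 3 mice were given IgG1 isotype control and 3 were given ipilimumab, an antibody that blocks the T cell checkpoint receptor CTLA4 (both 5 mg per kg, intraperitoneally, in a twice-weekly schedule of 4.5 weeks). The right lung of each mouse was digested and put in a single-cell library of its own, so that no uninjured mouse and no mouse without an antibody enters the comparisons.

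A dividing cell copies its DNA in S phase and separates the copies in mitosis, which follows a second gap phase (G2). Many genes for these steps are transcribed only in part of the cycle, under E2F factors before and during S phase and under B-MYB and FOXM1 with the DREAM-related MuvB complex in G2 and mitosis, so their mRNA marks a cell that is preparing to divide or dividing. In the lung, AMs renew themselves locally, and T and B cells divide after they meet antigen, while most endothelial cells and fibroblasts of the adult lung rest.

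The 6 genes that chose the cells belong to different steps of the cycle. Mki67 encodes Ki-67, a protein that coats mitotic chromosomes. Top2a encodes the topoisomerase that untangles DNA, Birc5 encodes survivin of the chromosomal passenger complex, and Cenpf encodes a kinetochore protein. Pclaf encodes a partner of the replication clamp PCNA, and Ccna2 encodes cyclin A2. Sequences before the transcription start were read from RefSeq (GRCm38.p6) for 5 of the 6 genes, since Ccna2 has no entry in the table used. The 250 bases before each start were searched on both strands for TTTGAA, the core of the cell cycle genes homology region, and for CCAAT, the NF-Y box. Both are known from promoters of late cell cycle genes. For 4 of the 5 genes, a stretch of 60 bases is given below, 5′ to 3′ on the gene's own strand, with each match to either motif or its reverse complement in capitals. The stretches lie at chr7:135716488-135716547 (minus strand), chr11:99024361-99024420 (minus), chr9:65890229-65890288 (plus) and chr1:189688212-189688271 (minus), in the order listed.
Mki67: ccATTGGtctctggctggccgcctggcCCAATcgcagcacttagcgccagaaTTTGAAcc
Top2a: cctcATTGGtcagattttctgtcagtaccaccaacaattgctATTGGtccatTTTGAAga
Pclaf: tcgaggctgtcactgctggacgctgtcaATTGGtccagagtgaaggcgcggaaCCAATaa
Cenpf: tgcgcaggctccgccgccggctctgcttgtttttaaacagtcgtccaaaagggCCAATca
In the whole 250 bases, Mki67 held 2 TTTGAA and 3 CCAAT matches and Top2a held 2 and 6. Pclaf and Cenpf each held 2 CCAAT matches and no TTTGAA, and Birc5 held neither. Of 32851 RefSeq promoters of the same length, 16% held TTTGAA, 33.8% held CCAAT and 5.55% held both. A match is a description of the letters in this window and not of a site in use.

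One library stood apart from the others. In ipilimumab replicate 1, cells held 80.8% of the UMIs, where they held from 92.1% to 92.3% in the other 5 libraries. It lost 180 barcodes to the limit on mitochondrial UMIs against 29 to 56 in the other libraries. It also held 59 of its 165 cycling cells below 3000 UMIs, where the other libraries held 7, 1 and 3 (IgG1) and 2 and 2 (ipilimumab replicates 2 and 3). The median AM-lineage cell that did not cycle had 3348.5 UMIs in this library and from 19297 to 24116.5 in the others. The cycling shares of all, AM-lineage, T-lineage and no-lineage cells, and the T and AM make-up, are therefore given with and without it. The shares of all and of AM-lineage cells are also given at a minimum of 3000 UMIs per cell, a limit chosen after seeing the data.

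The number of cycling cells was 71, 107 and 48 in IgG1 replicates 1 to 3 and 165, 82 and 106 in ipilimumab replicates 1 to 3. As a share of the cells, this was 1.57% (Wilson 95% interval 1.24 to 1.97), 2.48% (2.05 to 2.98) and 1.44% (1.08 to 1.90) for IgG1. For ipilimumab, it was 3.19% (2.75 to 3.71), 1.97% (1.59 to 2.44) and 2.54% (2.10 to 3.06). The intervals cover counting error only. Ipilimumab replicate 1 was the highest mouse and IgG1 replicates 1 and 3 the lowest, and IgG1 replicate 2 lay among the ipilimumab mice. The mean was 1.83% ± 0.567 with IgG1 and 2.57% ± 0.611 with ipilimumab (SD, n = 3 each). The difference of 0.740 percentage points was within the overlap of the groups (exact permutation test, two-sided, p = 0.2, where 0.1 is the smallest p that 3 against 3 mice can give). Without ipilimumab replicate 1 the difference was 0.427, and at 3000 UMIs or more it was 0.732. It was 1.06 without IgG1 replicate 2 and 1.04 without ipilimumab replicate 2, and in both cases the groups did not overlap (exact permutation p = 0.2 for both).

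The rule genes separated the chosen cells from the rest by construction, and their levels are given as a description. Mki67 was found in 87.9% to 100% of the cycling cells of a mouse and in 2.38% to 3.20% of the other cells. Its level was 463 to 645 CPM (UMIs of the gene per 1000000 UMIs) in cycling cells, 3.57 to 7.07 CPM in other cells and 17.3 to 32.1 CPM in the ambient RNA of barcodes with 10 to 100 UMIs. Top2a was found in 79.2% to 91.6% of cycling cells, Birc5 in 77.6% to 89.0%, Pclaf in 79.4% to 94.4%, Cenpf in 55.8% to 75.0% and Ccna2 in 57.6% to 73.2%. In other cells the share was at most 6.80% (Top2a). The 6 genes together made up 2367, 2302 and 1940 CPM of the cycling cells in the IgG1 mice and 2383, 2041 and 2000 CPM in the ipilimumab mice.

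The choice of at least 3 genes cuts a range. Over all cells, 22519 had a UMI of none of the 6 genes, 2336 of 1, 270 of 2, 146 of 3, 74 of 4, 109 of 5 and 250 of all 6. Other division genes, which the rule did not use, were higher along this range. The S and G2/M phase genes without the 6 rule genes gave 6.54 of every 10000 UMIs in cells with 1 rule gene and 9.84 in cells just outside the rule, with 2. They gave 26.3 in cells just inside it, with 3, and 72 in cells with all 6. Cells near the limit were shallow in ipilimumab replicate 1 alone among the libraries, where 61 cells with exactly 3 rule genes had a median of 2024 UMIs and 96 cells with exactly 2 had 1791.5. Cycling cells otherwise held much more mRNA than the rest. Their median was 27622, 28508 and 28036.5 UMIs with IgG1 and 14562, 30620 and 28700.5 with ipilimumab, against 5532 to 7955.5 in other cells. Because a deep cell shows a rare mRNA more often, each share was also computed after thinning every cell to 3000 UMIs and leaving out shallower cells. The shares were then 0.885%, 1.68% and 0.805% with IgG1 and 2.08%, 1.17% and 1.52% with ipilimumab (difference 0.469 points, exact permutation p = 0.3).

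Neutrophils, which have left the cell cycle, gave the background of the rule at their own low depth. Of 1862 cells whose leading marker list was that of neutrophils, 1 was called cycling, or 0.0537% (Wilson 95% interval 0.00948 to 0.304), at a median of 3902 UMIs. Cells led by AM markers had a median of 20689.5 UMIs, and the background at such a depth was not measured. Of 860 cells led by endothelial markers (median 4796.5 UMIs), none was called, which allows a share of up to 0.349% that the rule would call at this depth (3 counts of the total). None of 99 cells led by alveolar type 2 (AT2) epithelial markers was called, but 78 of them came from ipilimumab replicate 1 at a median of 1512.5 UMIs and IgG1 replicate 3 had 0. Sftpc, a gene of the AT2 list, had 1054 UMIs in 4 cycling AM-lineage cells of ipilimumab replicate 3. In the cycling AM-lineage cells of the other mice it had 0 to 12 UMIs. Whether any of these 4 barcodes held an AT2 cell was not tested.

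Division was found mainly in AMs and T cells. The share of AM-lineage cells that cycled was 5.84%, 4.23% and 2.74% in the IgG1 mice and 8.37%, 5.62% and 7.42% in the ipilimumab mice. For T-lineage cells it was 2.55%, 6.52% and 3.08% with IgG1 and 6.53%, 2.36% and 2.86% with ipilimumab. The highest T values were thus those of 1 mouse in each group. NK-lineage cells gave 1.93%, 2.53% and 0.913% with IgG1 and 0.943%, 1.19% and 1.19% with ipilimumab. B-lineage cells were the most numerous lineage, with 9560 cells, and cycled in 0.317%, 0.548% and 0.519% with IgG1 and 0.510%, 0.374% and 0.699% with ipilimumab. Of 872 endothelial cells 3 cycled, and of 448 fibroblasts 1. The single lineages of 1 mouse rest on few cells, and 9 of 329 AM-lineage cells in IgG1 replicate 3 leave a Wilson 95% interval of 1.45% to 5.12%.

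**Figure D1:**
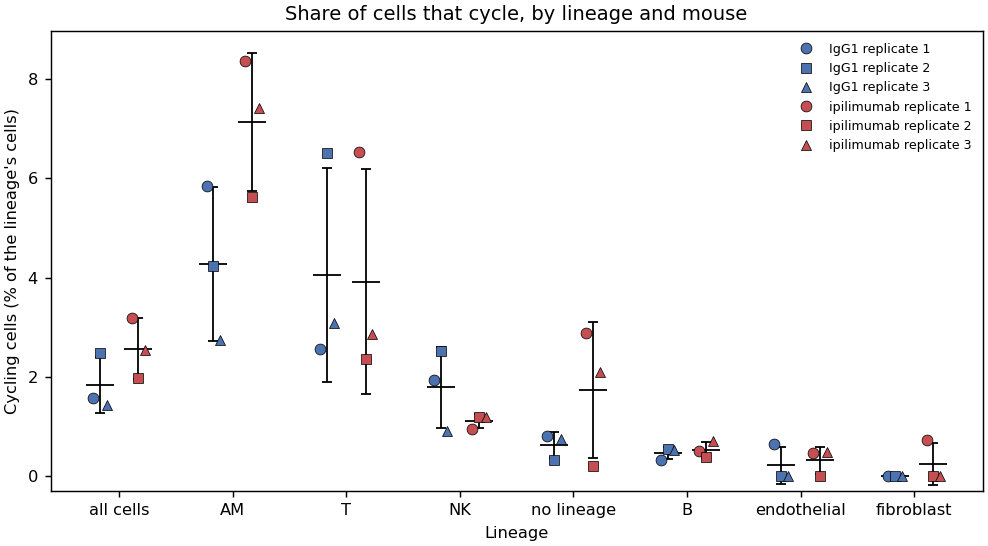
Share of cells that cycled (percent, y axis) for all cells, for each lineage and for cells without a lineage, with 1 point per mouse, IgG1 and ipilimumab side by side, and bars for the mean and SD of 3 mice. The AM points lie between 2.74% and 8.37% and the T points between 2.36% and 6.53%, while no B point exceeds 0.699%.

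The 6 lineages were compared with each other within mice, over all 6 mice and 15 pairs. The mean share was 5.70% in AM, 3.98% in T, 1.45% in NK, 0.495% in B, 0.263% in endothelial cells and 0.122% in fibroblasts. T and AM cells each cycled more often than B, NK, endothelial and fibroblast cells in 6 of 6 mice, and NK cells more often than B, endothelial and fibroblast cells in 6 of 6 (exact sign permutation, two-sided, p = 0.031, the smallest that 6 mice can give, adjusted p = 0.0426 over the 15 pairs). AM exceeded T in 4 of 6 mice, by 1.72 points ± 2.58 (SD, n = 6, exact p = 0.1875, adjusted p = 0.201), so these lineages did not differ beyond their spread. B cells were not told apart from endothelial cells (adjusted p = 0.180) or fibroblasts (adjusted p = 0.0781) by the same exact test. Apart from the thinning given next, calls for 3 pairs moved with the setting. B exceeded endothelial cells in 6 of 6 mice with doublets removed and fibroblasts in 6 of 6 with the strict lineage (exact sign permutation, adjusted p = 0.0391 for both), and NK exceeded fibroblasts in only 5 of 6 at 3000 UMIs or more (adjusted p = 0.0852, exact sign permutation). These lineages differ in depth. After thinning every cell to 1000 UMIs the mean shares fell to 1.25% in AM, 0.959% in T, 0.740% in NK, 0.0794% in B, 0.0754% in endothelial cells and 0.122% in fibroblasts, and none of the 15 pairs passed the threshold (lowest adjusted p = 0.0781, exact sign permutation). T against NK then differed by 0.219 points in 4 of 6 mice. T and NK each still exceeded B, endothelial cells and fibroblasts in 6 of 6 (exact sign permutation p = 0.031, the smallest that 6 mice can give, adjusted p = 0.0781), while AM exceeded each of these in 5 of 6.

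Between treatments, no lineage differed in its cycling share beyond the spread of the mice. AM-lineage cells had a mean share of 4.27% ± 1.55 with IgG1 and 7.13% ± 1.40 with ipilimumab (SD, n = 3 each), a difference of 2.87 points (exact permutation p = 0.2, adjusted p = 0.933 over 7 classes). IgG1 replicate 1, at 5.84%, lay above ipilimumab replicate 2, at 5.62%, and the other values were apart. At 3000 UMIs or more the AM shares were 5.24%, 4.34% and 2.81% with IgG1 and 10.4%, 5.72% and 7.34% with ipilimumab, and the groups no longer overlapped (difference 3.69 points, exact p = 0.1, the smallest possible, adjusted p = 0.7). They also did not overlap after thinning to 3000 UMIs, at 3.18%, 2.28% and 0.625% against 7.40%, 3.34% and 3.39%. Without ipilimumab replicate 1 the difference was 2.25 points. The quasi-likelihood test of edgeR on the cell counts gave a log2 ratio of 0.71 ± 0.44 (SE, adjusted p = 0.347) for AM and called 0 of 5 classes tested, and none had an unadjusted p under 0.05.

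T-lineage cells had a mean cycling share of 4.05% ± 2.16 with IgG1 and 3.92% ± 2.27 with ipilimumab (SD, n = 3 each, exact permutation p = 0.8). The sign of this difference of -0.131 points was set by single mice, since it was -1.44 without ipilimumab replicate 1 and 1.10 without IgG1 replicate 2. The ipilimumab minus IgG1 difference was 3.0 points larger in AM than in T cells, and the mice of the groups overlapped in this measure too (exact permutation p = 0.3). B-lineage cells (0.462% ± 0.126 against 0.528% ± 0.163, SD, n = 3 each, exact p = 0.6) and NK-lineage cells (1.79% ± 0.816 against 1.11% ± 0.143, exact p = 0.4) did not pass either. The NK difference of -0.683 points was -0.315 without IgG1 replicate 2 and -1.12 without IgG1 replicate 3, where the groups did not overlap (exact permutation p = 0.1, adjusted p = 0.7).

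The lineages that made up the cycling cells differed from mouse to mouse. T-lineage cells were 31.0%, 46.7% and 56.3% of the cycling cells with IgG1 and 39.4%, 26.8% and 26.4% with ipilimumab. AM-lineage cells were 46.5%, 37.4% and 18.8% with IgG1 and 35.8%, 61.0% and 50.9% with ipilimumab. IgG1 replicate 1 and ipilimumab replicate 1 each fell among the other group for both lineages. The mean for T was 44.7% ± 12.8 against 30.9% ± 7.38 and for AM 34.2% ± 14.1 against 49.2% ± 12.7 (SD, n = 3 each, exact permutation p = 0.2 and 0.3, adjusted p = 0.467 and 0.525). Without ipilimumab replicate 1 the groups did not overlap, and the difference between the means was -18.0 points for T and 21.8 for AM (exact permutation p = 0.2 for both, 3 mice against 2). Without IgG1 replicate 1 the T difference was -20.6, and without IgG1 replicate 3 the T and AM differences were -7.98 and 7.29. Without ipilimumab replicate 2 the AM difference was 9.15.

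**Figure D2:**
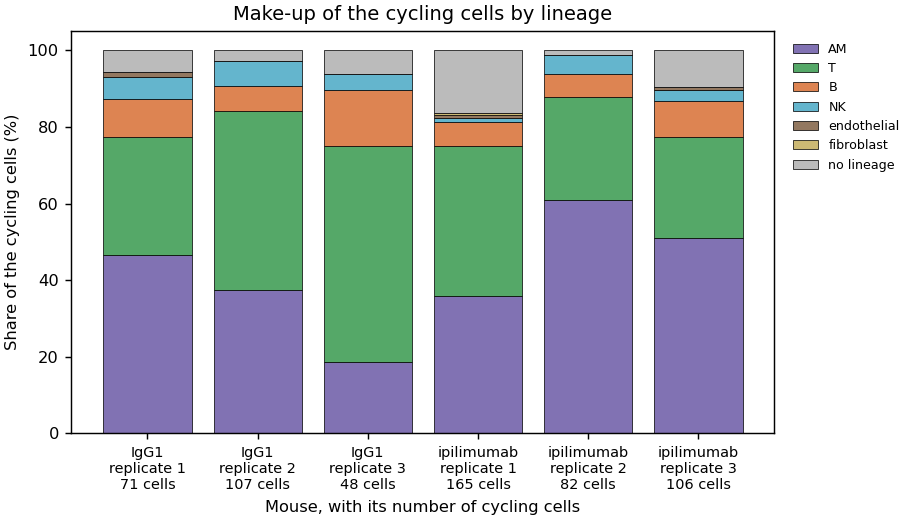
Make-up of the cycling cells of each mouse by lineage, as a stacked bar of percent of that mouse's cycling cells (y axis, starting at 0). AM and T segments fill most of every bar, with AM from 18.8% to 61.0% and T from 26.4% to 56.3%.

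The lineage names were checked against marker lists that the rule did not use. Of 214 cycling T-lineage cells, 199 (93.0%) had the T list (Cd3g, Trac, Trbc1, Trbc2, Lck, Cd2, Lat, Skap1) as their leading list. Of 22 NK-lineage cells, 18 were led by NK genes such as Nkg7 and Gzma. Of 245 AM-lineage cells, 160 (65.3%) were led by the AM list, which holds Chil3, the lectin-like protein Ym1, and Ear2, an eosinophil-associated ribonuclease, and 213 had UMIs of at least 3 AM markers. The remaining AM-lineage cells were led by nonclassical monocyte genes (19 cells, a list that also holds Ear2), T genes (18), dendritic cell genes (6) and other lists, or by none (15). The AM name was weakest in ipilimumab replicate 1, where 26 of 59 cells were led by the AM list. Of the 46 B-lineage cells, 26 were led by B genes and 10 by plasma cell genes. None of the 3 endothelial cells and not the 1 fibroblast was led by its own list, so no cycling endothelial cell or fibroblast is described further.

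In the T, AM and B lineages, more cycling cells than other cells carried a UMI of a second lineage. This was 58 of 214 in the T lineage (27.1%, against 11.6% of other T cells), 71 of 245 in the AM lineage (29.0% against 15.6%) and 18 of 46 in the B lineage (39.1% against 7.96%). In the NK lineage it was 3 of 22 (13.6% against 11.5%), with 0 of the cycling NK cells of the 3 ipilimumab mice. In the T, AM and NK lineages, cycling cells also had the higher median depth in every mouse. In the B lineage they had the lower one in IgG1 replicate 3 (3409 against 6687 UMIs) and ipilimumab replicate 1 (3228 against 5596). The part of depth in the share with a second lineage was not tested. The score of likeness to simulated doublets (barcodes that hold 2 cells) had a median of 0.66 in cycling and 0.32 in other T cells, and 0.68 and 0.36 in AM cells. Removing the highest scores at 0.8% per 1000 cells took 4, 7 and 4 cycling cells from the IgG1 and 5, 2 and 2 from the ipilimumab libraries, and the AM difference was then 3.33 points.

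Of the 48 cycling cells without a lineage, 25 had at least 3000 UMIs, and many of these carried dendritic cell genes. Clec9a or Xcr1, receptors of cross-presenting type 1 dendritic cells, were found in 8 of the 25, Cd209a, a lectin of type 2 dendritic cells, in 9, and all 3 C1q genes of macrophages in 3. Flt3, the growth factor receptor of dendritic cell precursors, was found in 12 and Ccr2, a chemokine receptor of monocyte-derived cells, in 18. Chil3, a gene of the AM list, was found in 13, and the part of ambient RNA in these counts was not tested. The other 23 cells had under 3000 UMIs, and 21 of these came from ipilimumab replicate 1. Genes of airway secretory cells, led by Scgb1a1, summed to 44283 CPM in the cycling cells without a lineage of ipilimumab replicate 3, which were 10 cells, and to 0, 0 and 0 CPM with IgG1 and 26.8 and 39.0 CPM in the other ipilimumab mice. None of these 10 cells was led by the airway secretory list. The share of cells without a lineage that cycled was 0.810%, 0.317% and 0.748% with IgG1 and 2.88%, 0.206% and 2.09% with ipilimumab (exact permutation p = 0.4), with ipilimumab replicate 2 below all others. The difference of 1.10 points was 0.522 without ipilimumab replicate 1 and 1.86 without ipilimumab replicate 2. In the latter case the groups did not overlap (exact permutation p = 0.1) and edgeR called the class (adjusted p = 0.00819, range over alternatives 0.00819 to 0.768), as it did where 2 of the 6 rule genes were enough (adjusted p = 0.0427). Over all mice, cells led by the dendritic list cycled in 18 of 83 cases (21.7%, median 22345 UMIs). By mouse, this was 3 of 10, 1 of 11 and 1 of 6 with IgG1. With ipilimumab it was 1 of 12, 3 of 17 and 9 of 27. Those led by plasma cell genes cycled in 15 of 52 (28.8%, median 19743.5 UMIs). By mouse, these were 3 of 6, 6 of 14 and 1 of 3 with IgG1. With ipilimumab they were 1 of 14, 1 of 2 and 3 of 13. Against this, 4 of 504 classical monocyte-led cells cycled and 20 of 944 nonclassical monocyte-led cells (2.12%). These classes hold few cells per mouse, so no test was made. Of the dendritic-led cycling cells without a lineage, 9 had at least 3000 UMIs and 2 had fewer, and the part of depth in these shares was not tested.

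Genes of cell division that the rule did not use were described by step, as CPM of all cycling cells against all other cells of the same mouse. The same cells were chosen by related genes, so that these are descriptions with no test. Over all 10572 genes measured, 25.9% were higher in cycling cells in 6 of 6 mice, with a median log2 ratio of -0.03. Of 11 genes of origin licensing, which load the replicative helicase before S phase, all 11 were higher in every mouse (median 2.76). The helicase subunit Mcm6 was at 174 CPM ± 30.6 in cycling and 28.7 CPM ± 3.27 in other cells (SD, n = 6 mice), and Mcm5 at 116 CPM ± 20.8 and 9.34 CPM ± 0.666. The 12 genes of DNA synthesis were likewise all higher (median 3.30). Pcna, the replication clamp, stood at 471 CPM ± 40.1 and 114 CPM ± 5.97, and Pola1, the catalytic subunit of the polymerase that starts each strand, at 245 CPM ± 33.6 and 28.5 CPM ± 2.58.

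All 7 mitotic kinases were higher in every mouse (median log2 ratio 4.17), among them Plk1, polo-like kinase 1, at 43.1 CPM ± 8.42 against 0.393 CPM ± 0.135, and Aurkb, the kinase of the passenger complex, at 62.4 CPM ± 8.72 against 1.25 CPM ± 0.418. All 13 spindle and kinetochore genes were higher (median 5.06), with the motor protein gene Kif11 at 184 CPM ± 24.7 against 2.39 CPM ± 0.769. Of the 6 genes of anaphase and mitotic exit, 5 were higher in every mouse (median 4.32). Ube2c, the ubiquitin-conjugating enzyme of the anaphase-promoting complex, stood at 282 CPM ± 32.3 against 1.28 CPM ± 0.735. The 10 genes of chromosomes and tubulin were all higher (median 2.79), including Hmgb2, a chromatin protein, at 2190 CPM ± 449 against 204 CPM ± 28.1.

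Regulators were mixed. Of 11 cyclin and cyclin-dependent kinase (CDK) genes, 7 were higher in every mouse. Cdk1, the mitotic kinase partner of cyclin B, was at 141 CPM ± 16.4 against 1.35 CPM ± 0.437. Ccnd2, a D cyclin that acts before S phase, was at 143 CPM ± 41.7 and 143 CPM ± 13 and was higher in 2 of 6 mice. Of 7 transcription factors, 6 were higher, including Foxm1 (37.8 CPM ± 7.08 against 1.67 CPM ± 0.312) and E2f8 (43.2 CPM ± 10.5 against 0.448 CPM ± 0.176). Of 7 inhibitors, 3 were higher in every mouse. Cdkn1a, which encodes the CDK inhibitor p21, was at 297 CPM ± 141 in cycling and 289 CPM ± 98.5 in other cells. Within the T and AM lineages the medians were close to these, with spindle genes at a median of 5.08 and 5.07, mitotic kinases at 4.63 and 4.26, and inhibitors at 0.15 and 0.14. Ccnd3 was below other T cells in all 6 mice (118 CPM ± 24.3 against 299 CPM ± 92.5), and in AM it was higher in 5 of 6 (99.6 CPM ± 30.1 against 87.7 CPM ± 30.3).

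**Figure D3:**
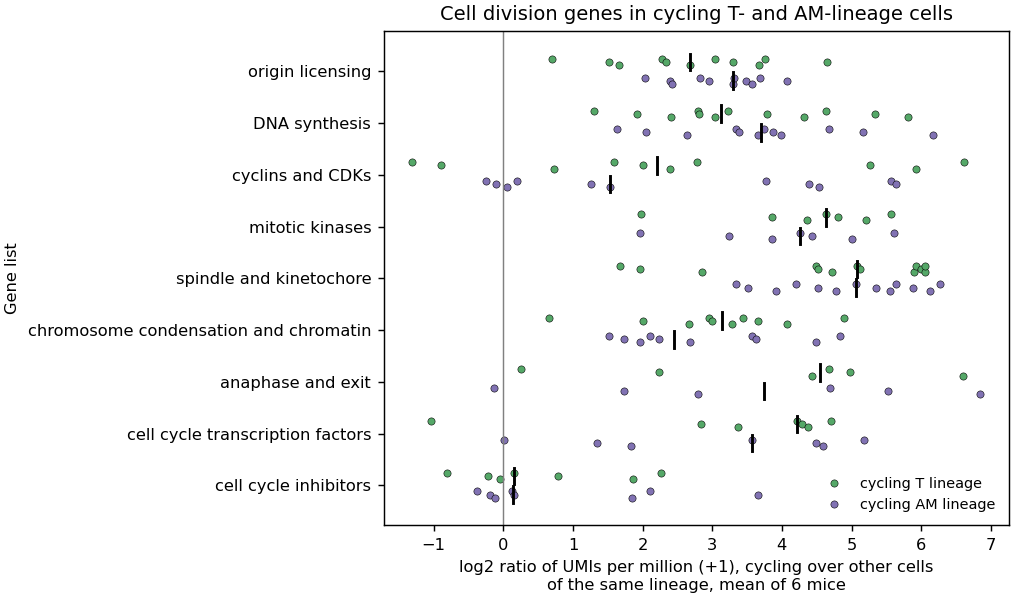
Log2 ratio of CPM in cycling over other cells of the same lineage (x axis, 1 CPM added, mean of 6 mice) for each gene of 9 division lists (y axis), in T-lineage (green) and AM-lineage (purple) cells, with a bar at the median of each list. Spindle and kinetochore genes have medians of 5.08 (T) and 5.07 (AM), and cell cycle inhibitors 0.15 and 0.14.

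Of 23 genes of the T subset list, 8 (34.8%) were higher and 4 (17.4%) lower in cycling than in other T-lineage cells of every mouse, which is near the 28.6% and 18.1% of all genes in T cells. Some of its members are given as values. Ctla4, the receptor that ipilimumab targets, counted on the mouse gene, was at 1020 CPM ± 298 in cycling and 423 CPM ± 134 in other T cells (SD, n = 6) and was higher in 6 of 6 mice. Cxcr3, a chemokine receptor of effector T cells, stood at 121 CPM ± 21.4 and 27.3 CPM ± 5.87, and Gzmb, the cytotoxic protease granzyme B, at 123 CPM ± 70.3 and 36.5 CPM ± 14.9, both higher in 6 of 6. Icos, a costimulatory receptor, was higher in 5 of 6 (346 CPM ± 61.5 against 277 CPM ± 93.4). Ccr7, the lymph node homing receptor, was lower in every mouse, at 169 CPM ± 95.1 against 397 CPM ± 31.7, as was Tcf7, a transcription factor of naive and memory T cells, at 234 CPM ± 61.1 against 315 CPM ± 56.7. The chemokine gene Ccl5 was also lower in every mouse (1070 CPM ± 488 against 2028 CPM ± 597).

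Of the 214 cycling T-lineage cells, 101 had UMIs of Cd4 without Cd8a or Cd8b1, 72 of Cd8 genes without Cd4, 22 of both and 19 of neither. Cd4-only cells cycled in 5.06%, 8.05% and 4.51% with IgG1 and 10.0%, 3.72% and 4.99% with ipilimumab. Cd8-only cells cycled in 1.40%, 8.45% and 2.41% with IgG1 and 5.32%, 1.70% and 2.11% with ipilimumab. The Cd4-only share was the higher in 5 of 6 mice, by 2.49 points ± 1.73 (SD, n = 6, exact sign permutation p = 0.0625, a comparison added after seeing the data), and the exception was IgG1 replicate 2. The medians were 8037 UMIs in Cd4-only and 9882 in Cd8-only cells. Foxp3, the transcription factor of regulatory T cells, was found in 27 of 214 cycling T cells (12.6%) and 186 of 5200 other T cells (3.58%), which were shallower.

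Cycling AM-lineage cells had lower levels of several genes of mature AMs. Lpl, lipoprotein lipase, was at 1661 CPM ± 260 in cycling and 2617 CPM ± 314 in other AM-lineage cells (SD, n = 6), Mertk, a receptor for dead cells, at 436 CPM ± 111 and 758 CPM ± 165, and Mrc1, the mannose receptor, at 915 CPM ± 157 and 1271 CPM ± 221. All 3 were lower in 6 of 6 mice. Of 16 genes of the AM state list, 9 were lower and 0 higher in every mouse (median log2 ratio -0.51), beside 13.9% and 22.2% of all genes in AM cells. Pparg, the transcription factor that sets AM identity, stood at 194 CPM ± 23.3 and 233 CPM ± 58.6 and was lower in 4 of 6 mice. The make-up by leading marker list differed too, with the AM list leading in 65.3% of cycling and 70.8% of other AM-lineage cells, the T list in 7.35% and 1.38% and the dendritic list in 2.45% and 0.817%, and the part of this in the lower levels was not tested.

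Of the 46 cycling B-lineage cells, 10 were led by the plasma cell list (21.7%, against 0.242% of other B-lineage cells). A UMI of Jchain was found in 22 (47.8%, against 1.37% of other B cells) and of Igha in 21 (45.7% against 4.17%). The median depth per mouse was 3228 to 43343 UMIs in cycling and 5264 to 6687 UMIs in other B cells, and the part of depth and of ambient RNA in these shares was not tested. Of 13 genes of the B state list, 5 were higher and 4 lower in every mouse, beside 11.5% and 18.4% of all genes in B cells. Jchain, the chain that joins IgA and IgM units, was at 7163, 7685 and 4952 CPM in the cycling B cells of the IgG1 mice and 4153, 15158 and 2788 CPM in those of the ipilimumab mice. Its mean was 6983 CPM ± 4406 in cycling and 388 CPM ± 321 in other B cells (SD, n = 6). Igha, the IgA heavy chain, stood at 17498 CPM ± 16317 and 449 CPM ± 498, and Mzb1, a chaperone of antibody secretion, at 1590 CPM ± 716 and 193 CPM ± 26.3, and all 3 were higher in 6 of 6 mice. Ighd, the IgD chain of naive B cells, was lower in every mouse (72.5 CPM ± 42.5 against 526 CPM ± 46.5). Each mouse had only 5 to 10 cycling B cells, so 1 cell can set such a level.

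The position of cycling cells within the cycle was read from 25 S phase and 32 G2/M genes without the 6 rule genes. The G2/M share of their UMIs was 49.8%, 48.5% and 54.0% with IgG1 and 53.5%, 55.1% and 58.1% with ipilimumab. The groups overlapped through IgG1 replicate 3, and the mean was 50.8% ± 2.87 against 55.5% ± 2.34 (SD, n = 3 each, exact permutation p = 0.2). Without ipilimumab replicate 1 the groups did not overlap, at a difference of 5.81 points (exact permutation p = 0.2). Without IgG1 replicate 3 they did not overlap either, at 6.38 points (exact permutation p = 0.1). Each of these fits has 2 mice in 1 group. Within AM-lineage cells, the share was 49.1%, 53.3% and 34.7% with IgG1 and 61.2%, 56.5% and 58.0% with ipilimumab, and all ipilimumab mice lay above all IgG1 mice, the lowest of which rests on 9 cells. Counted by cells, the AM-lineage groups met, since 51.5%, 47.5% and 55.6% of the cells had more G2/M than S UMIs with IgG1 and 57.6%, 56.0% and 55.6% with ipilimumab. T-lineage cells gave 45.1%, 44.6% and 59.0% against 45.8%, 49.7% and 59.1%, with the mice mixed. Over all lineages, 313 of 579 had more G2/M than S UMIs, 258 more S and 8 equal numbers.

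**Figure D4:**
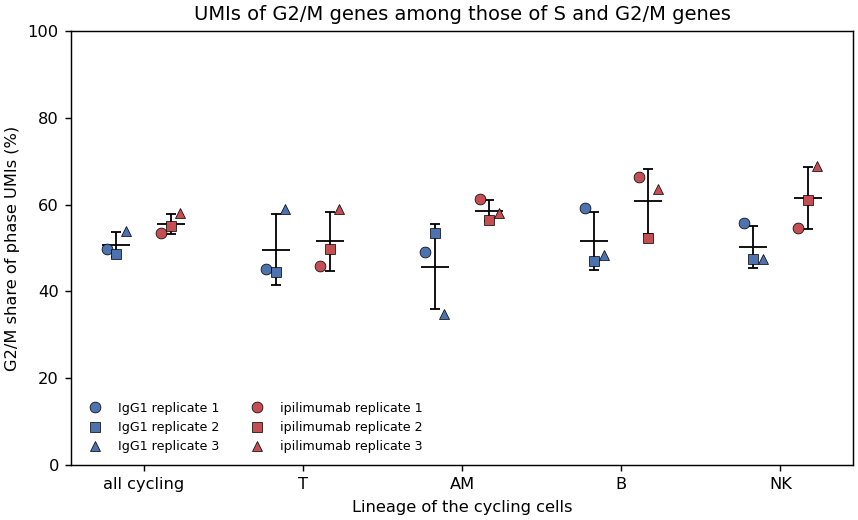
G2/M share of S and G2/M phase UMIs (percent, y axis) in all cycling cells and in the T, AM, B and NK lineages, with 1 point per mouse by treatment and bars for the mean and SD of 3 mice. In AM-lineage cells the ipilimumab mice lie from 56.5% to 61.2% and the IgG1 mice from 34.7% to 53.3%, while the T-lineage mice are mixed.

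The same genes, taken singly in the same AM-lineage cells, are given as a description of what makes up this share and not as further evidence, and none was called. Of 25 S phase genes, 22 had a log2 fold change below 0 with ipilimumab (median -0.33), and for 10 all ipilimumab mice were below all IgG1 mice, beside 4.84% of all genes. These 10 include the licensing genes Mcm4, Mcm5, Mcm6, Mcm7 and Cdc6, the primase gene Prim1 and Uhrf1, which keeps DNA methylation after replication. Of 32 G2/M genes, 31 were above 0 (median 0.39), and 5 (Ccnb1, Hmmr, Cks2, Cdca8, Cdca3) had all ipilimumab mice above all IgG1 mice, beside 4.96% of all genes. Ccnb1, cyclin B1, was at 57.0, 78.9 and 26.6 CPM with IgG1 and 116, 86.6 and 102 CPM with ipilimumab (log2 fold change 0.80 ± 0.28 SE, edgeR adjusted p = 0.985). Over all genes the share above 0 was 50.9% and the median 0.01. In T-lineage cells, 11 of 25 S phase and 21 of 31 G2/M genes were above 0 (median -0.04 and 0.05).

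UMIs summed per mouse were compared between treatments with the quasi-likelihood test of edgeR. A gene was called when its log2 fold change exceeded 0.3 in size and its adjusted p lay below 0.05. In AM-lineage cycling cells 0 of 9222 genes were called (0%), with 407 at an unadjusted p under 0.05 and 20 called by DESeq2. In all cycling cells 0 of 10916 were called (0%), with 635 at an unadjusted p under 0.05 and 11 called by DESeq2. In T-lineage cycling cells 1 of 7446 was called (0.0134%), with 347 at an unadjusted p under 0.05 and 7 called by DESeq2.

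The 1 called gene was Areg (ENSMUSG00000029378, GRCm38 chr5:91139599-91148432, plus strand), which encodes amphiregulin, a ligand of the epidermal growth factor receptor made by regulatory T cells and other cells in tissue repair. Its level in cycling T cells was 13.9, 15.6 and 9.31 CPM with IgG1 and 114, 47.9 and 85.8 CPM with ipilimumab. All ipilimumab mice lay above all IgG1 mice, as for 5.16% of all genes in these cells (5.55% had them all below). Areg rose with a log2 fold change of 2.67 ± 0.34 (SE, edgeR adjusted p = 0.0400). The counts behind it were 8, 24 and 7 UMIs against 185, 31 and 66, in 3 of 22, 7 of 50 and 5 of 27 cells against 16 of 65, 3 of 22 and 8 of 28. The direction held in all 17 alternatives (log2 2.34 to 2.91), but the call was kept in 7 and lost in 10 (edgeR or DESeq2 adjusted p from 8.70e-18 to 0.534), including each fit without ipilimumab replicate 1 (adjusted p = 0.0591) or replicate 3 (0.176), without any 1 IgG1 mouse (0.124 to 0.534) and with the replicate block (0.0790). In T cells that did not cycle it was 13.8, 14.2 and 14.0 CPM with IgG1 and 14.8, 27.1 and 39.9 CPM with ipilimumab. In the ambient RNA Areg was at 24.8, 34.2 and 20.1 CPM with IgG1 and 36.7, 40.6 and 37.4 CPM with ipilimumab, so that the groups did not overlap there either. The level in cycling T cells was below the ambient level in each IgG1 mouse and above it in each ipilimumab mouse, and the part of ambient RNA in the result was not tested. An Areg UMI was also found in 8 of 33, 10 of 40 and 3 of 9 cycling AM-lineage cells with IgG1 and in 12 of 59, 14 of 50 and 12 of 54 with ipilimumab (median depth per mouse 12119 to 31996 UMIs, against 23091 to 29393.5 UMIs in cycling T cells), so the counts of T cells with a UMI are not read as counts of cells that express it.

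Areg is also a gene of group 2 innate lymphoid cells (ILC2s) and regulatory T cells, and genes of these cells are given beside it. Of 42 cycling T cells with an Areg UMI, 14 had Foxp3, 8 had Il1rl1, the IL-33 receptor, 29 were Cd4-only and 11 Cd8-only. The ILC2 list holds Areg itself, with Gata3, Il1rl1, Il13 and Il5, so its sum of 108, 74.2 and 238 CPM with IgG1 and 257, 179 and 269 CPM with ipilimumab is not a separate measure. Gata3, the transcription factor of ILC2s and type 2 helper T cells and the most abundant of the 5, was at 92.3, 57.9 and 229 CPM against 122, 119 and 104 CPM, and its groups overlapped (log2 fold change -0.09, edgeR adjusted p = 0.989). Il1rl1 was at 0, 0.651 and 0 CPM against 20.9, 12.3 and 78.0 CPM. Foxp3 was at 0, 16.3 and 17.3 CPM against 18.5, 18.5 and 36.4 CPM, and Tnfrsf4, a costimulatory receptor high on regulatory T cells, at 38.3, 72.2 and 43.9 CPM against 86.1, 153 and 248 CPM (log2 fold change 1.56, edgeR adjusted p = 0.445). All ipilimumab mice lay above all IgG1 mice for Il1rl1, Foxp3 and Tnfrsf4, as for 5.16% of all genes tested in these cells. In the T subset list, 3 of 21 genes tested had no overlap in either direction (14.3%, beside 10.7% of all genes). Counted by cells, the Foxp3 groups overlapped. A Foxp3 UMI was found in 0 of 22, 6 of 50 and 2 of 27 cycling T cells with IgG1. With ipilimumab it was found in 7 of 65, 4 of 22 and 8 of 28, and IgG1 replicate 2 lay above ipilimumab replicate 1. Il1rl1 had too few UMIs to be tested, and Foxp3 and Tnfrsf4 were not called. The part of these 3 genes in the Areg result was not tested.

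In AM-lineage cycling cells, the 5 genes with the lowest p in each direction are named although none was called. Higher with ipilimumab were Cacnb2, a calcium channel subunit (log2 fold change 3.77, adjusted p = 0.0932), H2-Aa, an MHC class II chain (1.52, adjusted p = 0.229), Eps8, an actin regulator (1.65), Jdp2, a transcription factor (1.52), and Scgb1a1, the secretory protein of airway club cells (2.48, the last 3 at an edgeR adjusted p of 0.285). Lower were Cmah (-1.86), Pycard, the inflammasome adaptor (-0.99), Mthfs (-0.74), Hip1r (-1.01) and Gm4869 (-1.55). For all 10, the mice of the groups did not overlap, as for 4.96% of all genes in these cells on the higher and 4.84% on the lower side. The 10 were picked by p from the same values, so this lack of overlap is a description and not further evidence. DESeq2 called 7 of these 10 (all but Mthfs, Hip1r and Gm4869), and edgeR with no low-count filter called 8, these 7 and Mthfs.

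H2-Aa was at 334, 294 and 174 CPM with IgG1 and 636, 858 and 798 CPM with ipilimumab in cycling AM cells, and at 340, 268 and 265 against 431, 334 and 415 CPM in other AM cells. Its partner chain H2-Ab1 stood at 359, 282 and 121 CPM against 565, 819 and 734 CPM (log2 1.46, edgeR adjusted p = 0.430). Dendritic cells make much of both chains. Their 6 listed markers, all detected and led by Cd209a, summed to 30.1, 39.1 and 5.91 CPM with IgG1 and 44.3, 115 and 70.4 CPM with ipilimumab, and cells with at least 3 of these markers numbered 1, 0 and 0 against 0, 5 and 4. Their part in the H2-Aa values was not tested. In the ambient RNA H2-Aa was at 1661, 893 and 1140 CPM with IgG1 and 1391, 1082 and 1201 CPM with ipilimumab. This was above the level in cycling AM cells in each mouse, and the part of ambient RNA in the H2-Aa values was not tested either.

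**Figure D5:**
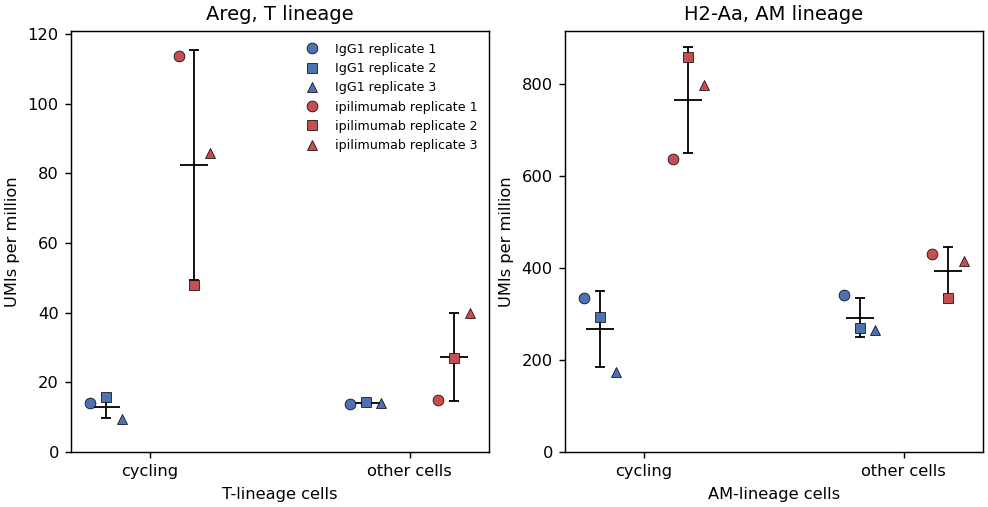
CPM per mouse (y axis, from 0) of Areg in T-lineage cells and H2-Aa in AM-lineage cells, each in cycling and in other cells, with 1 point per mouse and bars for the mean and SD of 3 mice. In cycling cells, Areg lies from 9.31 to 15.6 CPM with IgG1 and from 47.9 to 114 CPM with ipilimumab, and H2-Aa, which was not called, from 174 to 334 and from 636 to 858 CPM.

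Over all cycling cells of ipilimumab replicate 3 Scgb1a1 was at 8428 CPM (27223 UMIs), while the other mice had 2.71 to 28.6 CPM. Of these UMIs, 16 were in T and 45 in AM-lineage cells. Nearly all others lay in the 10 cells without a lineage and in the 1 cycling endothelial-lineage cell of this mouse. That cell had 50835 UMIs in all. How these UMIs came into so few cells was not tested. Scgb1a1 was at 11.4, 4.69 and 2.95 CPM with IgG1 and 52.2, 40.4 and 25.3 CPM with ipilimumab in cycling AM cells. AMs do not make it. In the ambient RNA it was at 1294, 2305 and 562 CPM with IgG1 and 17559, 17253 and 2571 CPM with ipilimumab. In AM-lineage cells that did not cycle it was at 598, 13.5 and 27.2 CPM with IgG1 and 3992, 33.5 and 5129 CPM with ipilimumab. The ipilimumab mice lay above the IgG1 mice in the ambient RNA, while in the cells that did not cycle the groups overlapped. The part of ambient RNA in the values in cells was not tested. Cacnb2 rested on 3, 5 and 4 cells with a UMI in the ipilimumab mice and on 1, 2 and 0 in the IgG1 mice.

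Over all cycling cells the lineage make-up, given above, can move a level without any change within a lineage, and in the sum these cannot be told apart. The lowest p values belonged to Tubb2b, a beta-tubulin (35.3, 27.4 and 24.6 CPM with IgG1 against 8.79, 10.5 and 8.05 CPM, log2 -1.68, edgeR adjusted p = 0.364), and Ccr9, a homing receptor of T cells and plasmacytoid dendritic cells (41.8, 57.8 and 59.3 against 7.85, 16.9 and 12.4 CPM, log2 -2.10, adjusted p = 0.364). The next were Glcci1 (-0.97), Gm4258 (-1.37) and Eaf2 (-1.63). Higher were Samsn1, an adaptor of immune cells (0.70), Ank3 (3.86), Rsu1 (0.67) and Cish, a feedback inhibitor of cytokine signalling (1.20). These genes were uncalled by edgeR in the fit given first, and in each the ipilimumab mice were all on 1 side of the IgG1 mice, as for 5.16% of all genes on the higher and 5.4% on the lower side. DESeq2 called 7 of them (all but Rsu1 and Cish), with Ccr9 at an adjusted p of 2.09e-06, and edgeR with no low-count filter called 5 (Ccr9, Ank3, Eaf2, Tubb2b and Gm4258, DESeq2 and edgeR adjusted p of these from 2.09e-06 to 0.0495). The Ank3 value moved with the setting, to a log2 of 1.11 with at least 2 rule genes and 5.64 without IgG1 replicate 2. Within T-lineage cells Ccr9 was at 40.0, 87.2 and 71.8 CPM with IgG1 and 7.38, 30.9 and 24.7 CPM with ipilimumab, again with no overlap.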

How the data were processed

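Right lungs of 6 mice, 3 given IgG1 and 3 given ipilimumab, were measured as 10x Genomics 3′ v3.1 libraries, 1 per mouse. The deposited values are counts of UMIs per gene and barcode for all barcodes, before the authors' ambient correction and filters. The submitters' processing notes give Cell Ranger 7.0.0 and mm10, while the matrix headers and the study's methods name other versions. Versions differ in whether intronic reads are counted by default, so whether the UMI counts include them is not known here. Libraries held 37666042 to 48612412 UMIs. Barcodes with at least 1000 UMIs, 500 genes and at most 10% mitochondrial UMIs were kept as cells, 4530, 4320 and 3344 (IgG1) and 5170, 4160 and 4180 (ipilimumab). Of 25635 distinct barcodes 68 occurred in more than 1 library, and 4 of the 579 cycling cells had such a barcode. Doublets were kept in the values given first and removed as an alternative by a score against 2 simulated doublets per cell. The cycling rule, the gene lists and the marker lists were chosen with earlier results of these data known.

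The mouse was the unit of each test. Shares were compared with two-sided exact permutation tests, and lineages with exact sign permutations over mice, with Benjamini-Hochberg adjustment. UMIs of cycling cells were summed per mouse and tested with edgeR 4.0.16 (trimmed mean factors, quasi-likelihood, R 4.3.3), with DESeq2 1.42.0 as an alternative. P-values measure the spread between mice. Python 3.11.15, numpy 2.4.6, scipy 1.17.1 and scikit-learn 1.9.0 were used. On simulated counts with 200 changed genes, the edgeR step recovered 48% of 2-fold and 91% of 4-fold changes for T-lineage cells (5 false calls) and 40% and 85% for AM-lineage cells (13). For description, CPM was computed from summed UMIs, 1 CPM was added before log2 ratios, and genes with at least 10 CPM over cycling and other cells together were counted. Genes named are the rule genes, up to 4 members per division list and up to 10 of the T, AM and B lists by UMIs, called genes, and otherwise the 5 lowest p per direction. One gene that this rule names is not reported here.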

Additional observations from a re-analysis of the deposited data

How the results depend on the processing

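Alternatives were run for the comparisons of all cells, T, AM, B, NK and cells without a lineage. Of these, 202 kept the direction and the side of the threshold, 24 changed a count and 11 turned a direction. In the 345 tries over 21 named genes no direction turned. These genes, Areg among them, were named for their low p in the fit given first. The kept directions were therefore largely fixed by that choice and are not a measure of stability. The T-lineage share difference turned to 0.839 points with at least 2 rule genes, 0.0562 at 2000 UMIs, 0.169 at 5% mitochondrial UMIs and 0.189 after thinning to 3000 UMIs, and ran from -1.44 to 1.10 when 1 mouse was left out. The B-lineage difference was -0.0170 with at least 4 rule genes and from -0.0195 to 0.143 with 1 mouse left out. The make-up difference of cells without a lineage was -1.39 after thinning. Not counted here are the endothelial differences, which rest on 3 cycling cells. The endothelial share difference went from 0.0960 to between -0.0927 and 0.320 points. The endothelial make-up difference turned from 0.0470 to -0.238 points with at least 4 rule genes. Also not counted are 2 lineage pairs after thinning to 1000 UMIs. B minus fibroblast turned from 0.373 to -0.0422 points and endothelial minus fibroblast from 0.141 to -0.0462. With at least 2 rule genes, edgeR called 1 class, cells without a lineage (log2 1.67, adjusted p = 0.0427, range over alternatives 0.00819 to 0.768), and from 0 to 1 with 1 mouse left out. Of the lineage pairs, 0 passed after thinning to 1000 UMIs. Calls in all cycling cells were 11 with DESeq2, 7 with no low-count filter and 0 to 3 with 1 mouse left out. In T-lineage cells they were 0 with at least 2 or 4 rule genes, the strict lineage or no trimmed mean factors, 7 with DESeq2, 122 with no filter and 0 to 4 with 1 mouse left out. In AM-lineage cells they were 2 with at least 4 rule genes, 1 at 5% mitochondrial UMIs, 20 with DESeq2, 204 with no filter and 0 to 3 with 1 mouse left out. The cause of these changes was not tested. With the replicate block, T-lineage cells gave 0 calls and no other call changed. Same-numbered mice deviated together in no consistent way (correlations from -0.254 to 0.0857), and the mice were not treated as paired. With 3 mice per group, these correlations cannot show whether the numbers pair the mice. Lineages of few cells and 3 mice per group limit what could be shown.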
